A study of Homo sapiens with 16 samples.

Results

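The domain described here is the stretch of chromosome 8 from 128.00 to 130.00 Mb (hg19) that holds *MYC*, taken at 128.75 Mb, and *PVT1*, taken from 128.81 to 129.11 Mb, with the sequence upstream and downstream of both. Its members are all listed peaks of histone 3 lysine 27 acetylation (H3K27ac) and histone 3 lysine 9 acetylation (H3K9ac) that touch this interval, chosen by position and not by any measured value. There were 265 such peaks among the 179689 peaks of the 8 lists. *MYC* encodes a transcription factor that drives growth, ribosome production and cell division, and it is one of the most frequently overexpressed oncogenes in human tumors. *PVT1* is the gene of a long noncoding RNA directly downstream of *MYC*, often gained together with it in ovarian and other cancers, and its body holds enhancers that can contact the *MYC* promoter. Enhancers of *MYC* lie far apart on both sides of the gene and differ between tissues. H3K27ac marks active enhancers and promoters, and H3K9ac is found mainly at active promoters and at strong enhancers.

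The study used human epithelial ovarian cancer (EOC) cell lines. A2780 cells stem from an endometrioid adenocarcinoma, received no treatment and are sensitive to cisplatin (cPt), a platinum drug that crosslinks DNA, and A2780cis is their resistant counterpart kept in medium with 1 µM cPt. CAOV4 is an untreated high-grade serous line, and CAOV4cis cells were derived from it with increasing cPt over 21 days and then kept with 1 µM cPt. A2780 cells made competent for Tet-on expression carried shMBD3.26 or shMBD3.232, inducible shRNAs against *MBD3*, a core subunit of the nucleosome remodeling and deacetylase complex NuRD, and were sorted for GFP after 7 days of knockdown. H3K27ac was profiled in these 6 conditions and H3K9ac only in A2780 and A2780cis, with 1 library per condition. The hairpin cells were compared with A2780 cells without a hairpin, so that transduction, induction and sorting cannot be told apart from the knockdown. Both resistant lines were kept with cPt and their parents were not, so that resistance cannot be told apart from the drug in the medium. All cells were washed with the deacetylase inhibitor Trichostatin A when harvested. Cells with a control shRNA and the input libraries were not analysed here. Whether any line carries extra copies of *MYC* and *PVT1* was thus not assessed.

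With 1 library per condition, no difference has a replicate check and none was tested. The lists give the start and end of each peak and a score that is 0 in every row, so that they show where acetylation was called and how far it reached, but not its strength or the read depth. A wider stretch of listed peaks and a larger share of acetylated cells cannot be told apart. The measure used below is the covered length, in kb, which is the number of bases under listed peaks. The whole lists held between 15365 and 28662 peaks each. All peaks of the interval start and end on a grid of 200 bp, and the smallest gap between neighbors is 1000 bp.

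H3K27ac peaks covered 182.8 kb of the interval in A2780, in 36 peaks, and 156.2 kb in A2780cis, in 30 peaks. They covered 149.4 kb in cells with shMBD3.26, in 27 peaks, and 170.0 kb with shMBD3.232, in 24 peaks. The 4 lists of A2780 and its derivatives thus lay between 149.4 and 182.8 kb. CAOV4 had 56 peaks and a covered length of 349.2 kb, and CAOV4cis had 57 peaks and 320.8 kb. Both CAOV4 lists covered more of the domain than any of the A2780 lists. H3K9ac peaks covered 73.2 kb in A2780, in 24 peaks, and 66.0 kb in A2780cis, in 11 peaks.

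To see how the domain stands among other stretches of the same size, the chromosomes were divided into windows of 2 Mb. In CAOV4, 97.2% of the windows with a peak were covered less than the *MYC* and *PVT1* domain, and 31 of 1129 windows were covered more. In CAOV4cis this was 96.0%, with 44 of 1136 windows covered more. In the 4 H3K27ac lists of A2780 and its derivatives, between 82.7% and 86.4% of the windows were covered less. For H3K9ac, the values were 77.2% in A2780 and 75.3% in A2780cis. The domain was therefore covered more than at least 75.3% of the windows in each of the 8 lists, and its standing was highest in CAOV4 and CAOV4cis.

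**Figure D1:**
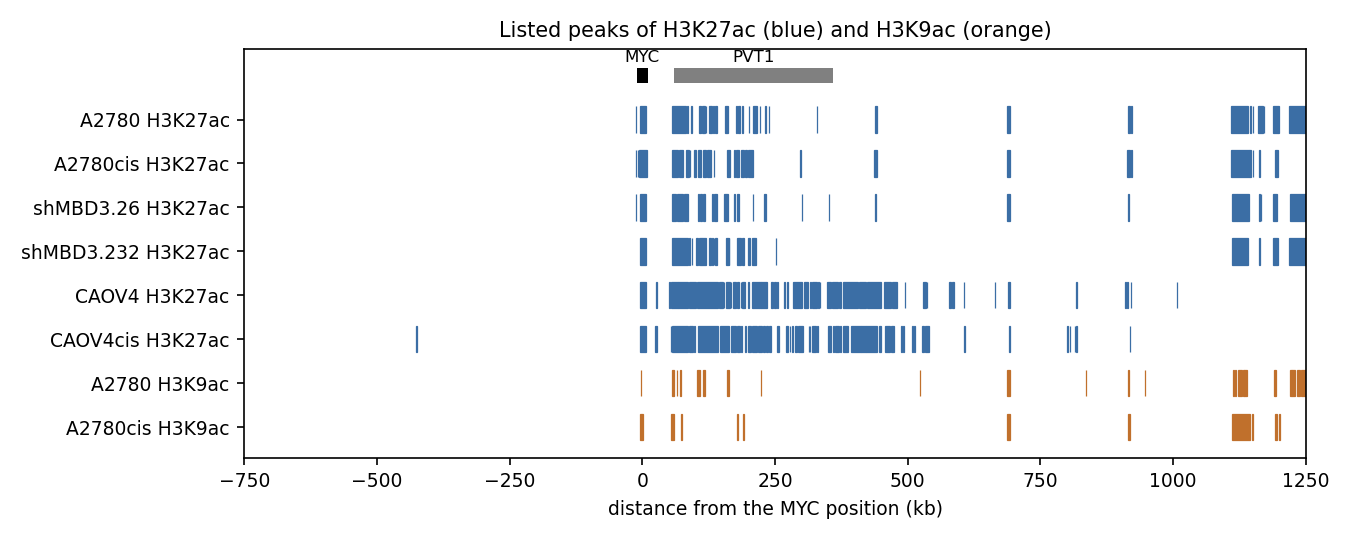
Listed peaks across the interval in the 8 lists, by distance from the *MYC* position (horizontal axis, kb). Blue bars are H3K27ac peaks, orange bars are H3K9ac peaks, the black bar is the *MYC* window, the grey bar is *PVT1*, and narrow peaks are drawn with a thin outline so that they stay visible. The stretch before *MYC* is almost empty, CAOV4 and CAOV4cis fill *PVT1* and the stretch behind it, and the lists of A2780 and its derivatives hold a separate group of wide peaks at the far end.

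The peaks were unevenly spread along the domain. In steps of 100 kb, 9 of the 20 steps held an H3K27ac peak in A2780, A2780cis and the shMBD3.26 cells, 6 did in the shMBD3.232 cells, and 11 did in CAOV4 and in CAOV4cis. The step that begins at 128.8 Mb, with the *PVT1* start, was the most covered in 5 of the 6 H3K27ac lists. It held 53.0 kb in A2780, 49.2 kb in A2780cis, 43.4 kb with shMBD3.26, 60.2 kb with shMBD3.232, 93.0 kb in CAOV4 and 78.6 kb in CAOV4cis. In CAOV4cis the step from 129.1 Mb was covered slightly more, with 80.6 kb. Only 4 of the 8798 steps of 100 kb with a peak in CAOV4 were covered more than its step at the *PVT1* start.

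Upstream of *MYC*, the domain was close to empty of both marks. From 128.0 to 128.7 Mb, the one listed peak was an H3K27ac peak of 1.0 kb in CAOV4cis, from 128323601 to 128324600. A narrow H3K27ac peak began at 128738201 in A2780, A2780cis and shMBD3.26 cells, 11.8 kb before the *MYC* position, with a width of 0.2, 0.2 and 0.4 kb. It was not listed in the shMBD3.232 cells or in either CAOV4 line. The H3K27ac and H3K9ac peaks of the domain were therefore nearly all at *MYC* or downstream of it.

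**Figure D2:**
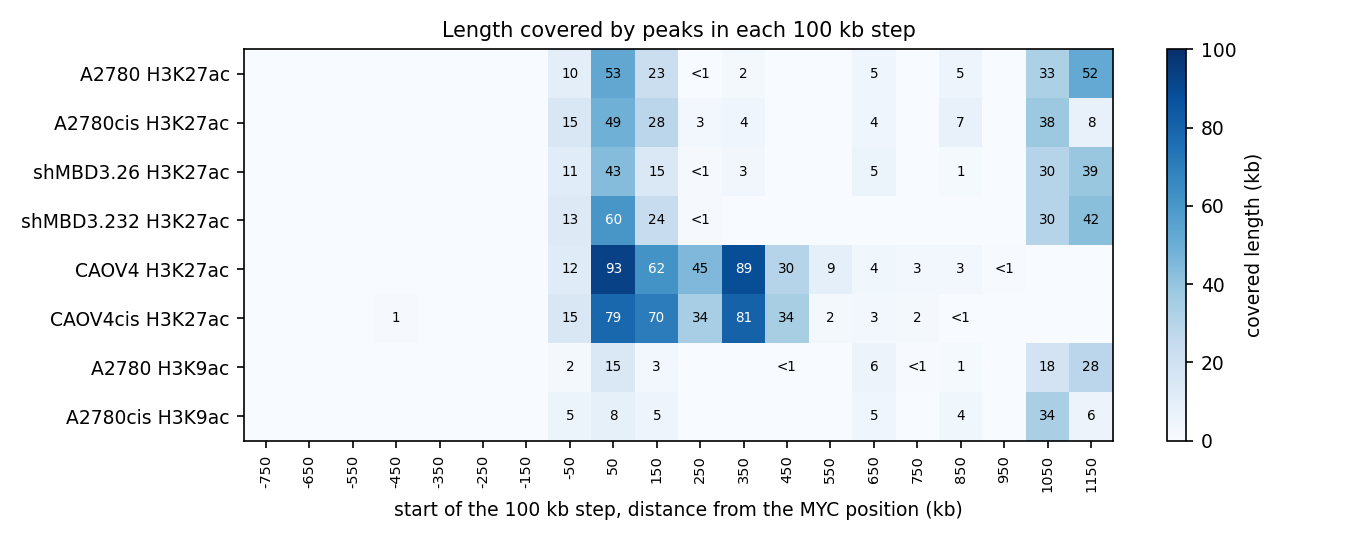
Covered length (kb, color and printed value) in each 100 kb step, with the 8 lists as rows and the start of each step, by distance from the *MYC* position (kb), along the horizontal axis. Steps without a number hold no listed peak. The H3K27ac lists share the steps at *MYC* and the *PVT1* start, the CAOV4 lists run on through the next 4 steps, and the A2780 lists are covered again in the last 2 steps.

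All 8 lists had a peak at *MYC* itself, here the 20 kb around its position. The main H3K27ac peak ran from 128746001 to 128753000 in A2780, over 7.0 kb, and a second peak of 2.6 kb followed from 128754001 to 128756600. In A2780cis a single peak of 14.2 kb spanned both, from 128744601 to 128758800. In the hairpin cells, also a single peak lay there, of 11.0 kb with shMBD3.26, from 128746001 to 128757000, and of 12.6 kb with shMBD3.232, from 128744801 to 128757400. The acetylated stretch at *MYC* was thus listed as a pair of peaks in A2780, with a gap of 1000 bp, and as a continuous peak in its 3 derivatives. In CAOV4 the peak was 9.8 kb wide, from 128746201 to 128756000, and in CAOV4cis 11.4 kb, from 128745201 to 128756600.

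The covered length of the *MYC* window was 9.6 kb in A2780 and 15.0 kb in A2780cis, or 48% and 75% of the window. It was 11.0 kb with shMBD3.26 and 12.6 kb with shMBD3.232, 9.8 kb in CAOV4 and 11.4 kb in CAOV4cis. The difference at *MYC* was 5.4 kb between A2780cis and A2780 and 1.6 kb between CAOV4cis and CAOV4, which share no library. Each resistant line thus had a longer covered stretch at *MYC* than its parent, and the size differed between the pairs. Against the same A2780 list, the difference was 1.4 kb with shMBD3.26 and 3.0 kb with shMBD3.232. Every H3K27ac difference from A2780 at *MYC* includes the gap between its pair of peaks, which the lists of its derivatives cover. H3K9ac reached less far at *MYC*, with a peak of 1.8 kb in A2780, from 128746601 to 128748400, and of 5.2 kb in A2780cis, from 128745201 to 128750400. Both H3K9ac peaks lay within the H3K27ac peak of the same line and ended near or before the *MYC* position. Peaks of A2780cis were also wider over the whole lists. The median width of all H3K27ac peaks was 2.8 kb in A2780cis and 2.2 kb in A2780, CAOV4 and CAOV4cis. It was 2.0 kb with shMBD3.26 and 2.6 kb with shMBD3.232. For H3K9ac it was 2.6 kb in A2780cis and 1.6 kb in A2780. Whether the difference at *MYC* goes beyond this was not tested.

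The start of *PVT1* was the other place where all 8 lists had a peak. The H3K27ac peak over it was 26.8 kb wide in A2780, from 128805601 to 128832400. It was 12.0 kb wide in A2780cis and 9.2 kb with shMBD3.26, both from 128805001. It reached 31.4 kb with shMBD3.232, from 128805001 to 128836400. CAOV4 had a peak of 12.2 kb, from 128804201 to 128816400, and CAOV4cis one of 26.4 kb, from 128805201 to 128831600. These widths differed mainly in whether neighboring peaks were joined. The covered length of the whole stretch from 128804201 to 128837800, 33.6 kb long, was between 25.8 and 31.4 kb in all 6 H3K27ac lists. H3K9ac peaks covered 7.0 kb of it in A2780 and 8.4 kb in A2780cis, and the main peak, at the *PVT1* start, was 4.6 and 5.2 kb wide.

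Bases under a peak in all 8 lists formed 3 stretches with 7.2 kb in total. The first lay at *MYC*, from 128746601 to 128748400, the next at the *PVT1* start, from 128805601 to 128809600, and the last within *PVT1*, from 128822001 to 128823400. Across the 6 H3K27ac lists alone, 12 stretches with 38.6 kb were shared. Of these, 8.8 kb lay at *MYC*, 8.6 kb in a stretch across the *PVT1* start, from 128805601 to 128814200, and 21.2 kb further inside *PVT1*. None lay upstream of *MYC* or downstream of *PVT1*. Bases covered in each of the 6 H3K27ac lists were thus limited to *MYC*, *PVT1* and the stretch between them. Between A2780 and CAOV4 alone, 3 merged regions downstream of *PVT1* also had a peak in both lists. Merged over the 8 lists, the peaks formed 68 regions, of which 2 had a peak in every list and 35 in 1 list only.

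**Figure D3:**
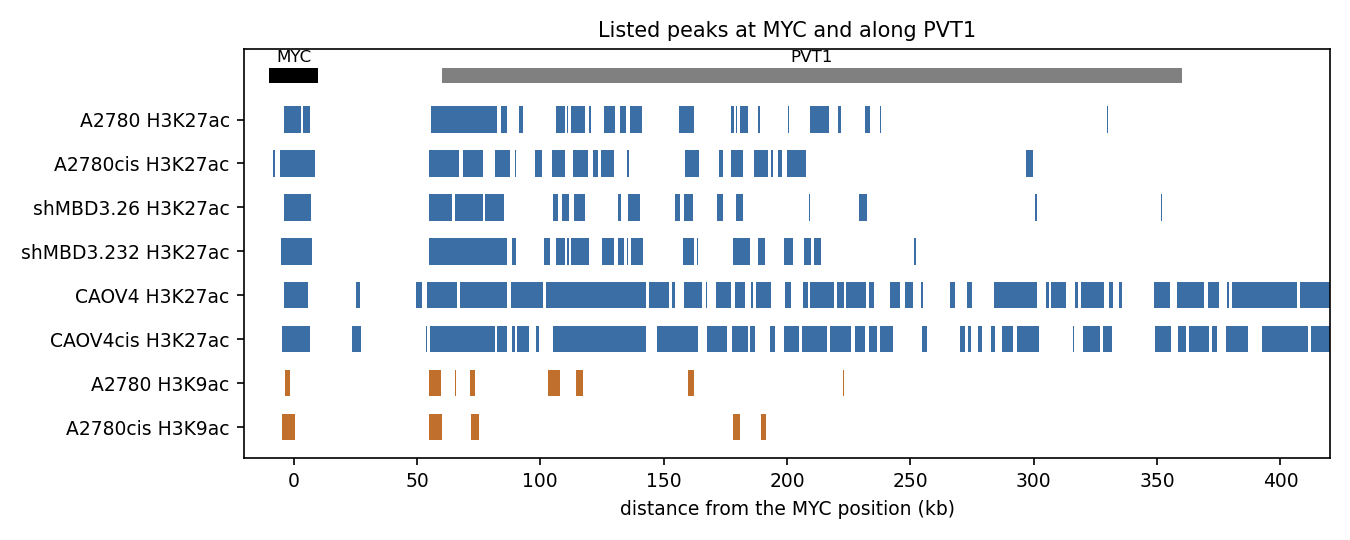
Listed peaks at *MYC* and along *PVT1*, by distance from the *MYC* position (horizontal axis, kb), with H3K27ac in blue, H3K9ac in orange, the *MYC* window in black and *PVT1* in grey. All 8 lists have a peak at *MYC* and at the *PVT1* start, where H3K27ac peaks are 9.2 to 31.4 kb wide, and CAOV4 and CAOV4cis cover 66.5% and 61.9% of *PVT1*.

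Along the 300 kb of *PVT1*, the CAOV4 lists were covered far more than the A2780 lists. H3K27ac covered 71.4 kb of *PVT1* in A2780, 75.0 kb in A2780cis, 54.0 kb with shMBD3.26 and 79.6 kb with shMBD3.232, which is 23.8%, 25%, 18% and 26.5% of its length. In CAOV4 it covered 199.4 kb, or 66.5%, and in CAOV4cis 185.6 kb, or 61.9%. The stretch from 128851601 to 128893000, 41.4 kb long, shows this in detail. A peak of 40.4 kb in CAOV4 and of 38.0 kb in CAOV4cis filled it, the widest peak of the domain in each of these lists. In A2780 it was covered over 22.4 kb, in A2780cis 20 kb, with shMBD3.26 15.4 kb and with shMBD3.232 26.8 kb, in several narrower peaks. In the last *PVT1* steps the contrast was larger still. From 129.0 to 129.1 Mb, 45.2 kb were covered in CAOV4 and 34.4 kb in CAOV4cis, against 0.2 to 2.6 kb in the 4 lists of A2780 and its derivatives.

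Directly downstream of *PVT1*, CAOV4 cells carried wide H3K27ac peaks where A2780 cells had few or none. The stretch from 129128001 to 129171600 was covered over 41.4 kb in CAOV4 and 36.0 kb in CAOV4cis, and no list of A2780 or its derivatives had a peak in it. The next stretch, from 129172001 to 129200400, was covered over 26.2 kb in CAOV4 and 25.2 kb in CAOV4cis. There the values were 2.2 kb in A2780, 4.0 kb in A2780cis and 3.2 kb with shMBD3.26, and none was listed with shMBD3.232. From 129.11 to 129.80 Mb as a whole, 129.8 kb were covered in CAOV4 and 113.8 kb in CAOV4cis, against 11.8 kb in A2780, 15.8 kb in A2780cis, 9.8 kb with shMBD3.26 and no peak with shMBD3.232.

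At the far end the pattern was the other way round. From 129.80 to 130.00 Mb, neither CAOV4 nor CAOV4cis had a listed peak. H3K27ac covered 85.4 kb of these 200 kb in A2780, 45.2 kb in A2780cis, 69.2 kb with shMBD3.26 and 72.8 kb with shMBD3.232. H3K9ac covered 46.6 kb there in A2780 and 39.4 kb in A2780cis, more than in all the rest of the domain in either line. The largest parts of this far group were 2 wide stretches. The first, from 129858601 to 129897000, was covered over 33.2 kb in A2780, 37.4 kb in A2780cis, 30.2 kb with shMBD3.26 and 30.4 kb with shMBD3.232.

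The other wide stretch, from 129969001 to 130017600, was a single H3K27ac peak of 48.6 kb in A2780, the widest A2780 peak of the domain, and it runs past the end of the interval. It was covered over 42.0 kb with shMBD3.26 and 46.2 kb with shMBD3.232. A2780cis had no H3K27ac peak in it. H3K9ac showed the same presence and absence, with 35.8 kb in A2780 and no peak in A2780cis. This was the largest stretch of the domain with peaks of both marks in A2780 and of neither in its resistant counterpart. Between the wide stretches lay smaller ones. From 129909201 to 129919000, H3K27ac covered 9.8 kb in A2780, against 1.6 kb in A2780cis, 1.0 kb with shMBD3.26 and 2.6 kb with shMBD3.232. From 129938601 to 129947600 it covered 8.4 kb in A2780, 4.8 kb in A2780cis, 7.8 kb with shMBD3.26 and 9.0 kb with shMBD3.232, and H3K9ac covered 3.0 kb in A2780 and 2.8 kb in A2780cis.

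**Figure D4:**
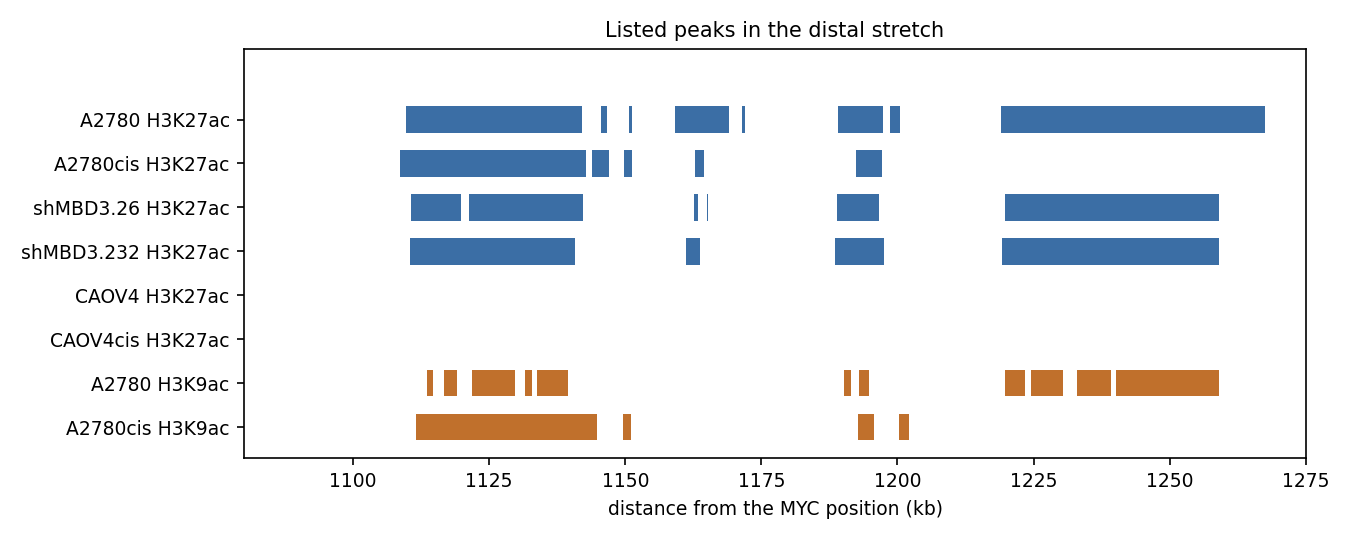
Listed peaks at the far end of the domain, by distance from the *MYC* position (horizontal axis, kb), with H3K27ac in blue and H3K9ac in orange, one row per list. The stretch at about 1110 kb has wide peaks in all lists of A2780 and its derivatives, the stretch that begins at 1219 kb has them in A2780 and both hairpin lines and not in A2780cis, and CAOV4 and CAOV4cis have none.

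Bases covered in all 4 H3K27ac lists of A2780 and its derivatives but in neither CAOV4 list came to 33.6 kb, all of them downstream of *PVT1*. Bases covered in both CAOV4 lists but in none of the 4 others came to 143.4 kb. Of these, 1.8 kb lay between *MYC* and *PVT1*, 55.6 kb in *PVT1* and 86 kb downstream of it. The *MYC* window held no base of either kind. One short stretch between the near and the far group, from 129437001 to 129443400, had peaks in 7 of the 8 lists, with 2.8 to 5.6 kb covered, and none in the shMBD3.232 cells.

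To put these differences against the rest of the genome, 2 measures were taken for each pair of lists. Overlapping peaks of a pair, with 1 bp in common or more, were joined into merged regions, and a region was called present in only one list where the other had no peak. A 100 kb step was called where the covered length differed at least 2-fold and by at least 10 kb. The same calls over all chromosomes give the background share, over all merged regions or over all steps with a peak in either list. Intervals are exact 95% binomial intervals and cover counting error only.

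CAOV4 and A2780, the untreated lines of different histology, were compared first. The covered length of the domain was 1.91 times as large in CAOV4, while the whole CAOV4 list covered 0.792 times the length of the A2780 list. Over 581 windows of 2 Mb with at least 20 kb in both lists, this ratio had a median of 0.876, 90% of the values lay between 0.243 and 3.22, and 85.5% were lower than that of the domain. The CAOV4 list was higher in 4 of 13 steps with a peak, against a background of 7.96% of steps. The A2780 list was higher in 2 steps, against 12.3%. The 4 steps higher in CAOV4 follow one another from 128.9 to 129.3 Mb, with 61.8 against 22.6 kb, 45.2 against 0.2 kb, 88.6 against 2.2 kb and 30.2 kb against none. The 2 steps higher in A2780 were the last of the domain, with 33.2 and 52.2 kb against none.

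Of 67 merged regions of CAOV4 and A2780, 14 had a peak in both lists, or 20.9% (11.9 to 32.6%), against 24.5% over all regions. A peak only in CAOV4 was found in 40 regions, with a background of 31.2%, and a peak only in A2780 in 13 regions, with a background of 44.3%. The share of regions in both lists was thus close to the background, and the regions of a single list were mostly those of CAOV4. Of the 40 regions, 20 lay in *PVT1* and 18 downstream of it.

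A2780cis was compared with A2780 to see where acetylation differed between the resistant line, kept with cPt, and its parent. H3K27ac covered 0.854 times the A2780 length in the domain and 0.950 times over the whole lists. This lay within the spread of 2 Mb windows, of which 29.5% had a lower ratio. The called difference was the last step, from 129.9 to 130.0 Mb, with 7.6 kb in A2780cis against 52.2 kb in A2780. This is 1 of 9 steps with a peak, against a background of 5.45% of steps higher in A2780. No step was called higher in A2780cis, where the background was 3.35%.

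Of 41 merged H3K27ac regions of the A2780 pair, 19 had a peak in both lists, or 46.3% (30.7 to 62.6%), against 44.0% over all regions. A peak only in A2780cis was found in 9 regions, with a background of 17.9%, and only in A2780 in 13, with a background of 38.1%. Apart from the far peak of 48.6 kb, the regions listed in A2780 alone were at most 7.6 kb wide, and those listed in A2780cis alone were at most 2.8 kb. In *PVT1* itself, 8 regions were in both lists, 8 only in A2780cis and 10 only in A2780, while the covered length was 75.0 kb against 71.4 kb.

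For H3K9ac, A2780cis covered 0.902 times the A2780 length in the domain and 0.987 times over the whole lists, and 41.4% of the 2 Mb windows had a lower ratio. The called step was again the last one, with 5.8 kb in A2780cis against 28.4 kb in A2780, or 1 of 9 steps, against a background of 3.27%. No step was called higher in A2780cis, with a background of 2.96%. Of 24 merged regions, 7 were in both lists, or 29.2% (12.6 to 51.1%), against 32.4% over all regions. There were 4 regions with a peak only in A2780cis, with a background of 21.7%, and 13 only in A2780, with a background of 46.0%. At the wide stretch from 129858601, H3K9ac differed in the other direction, with 33.2 kb in A2780cis against 18.2 kb in A2780, less than the 2-fold set for a call, and this step was called when only peaks over 2 kb were used.

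In CAOV4cis, H3K27ac covered 0.919 times the CAOV4 length in the domain and 1.06 times over the whole lists, and 27.6% of the 2 Mb windows had a lower ratio. No step of 12 with a peak was called in either direction, with a background of 1.29% higher in CAOV4cis and 1.35% higher in CAOV4. Of 58 merged regions, 28 were in both lists, or 48.3% (35.0 to 61.8%), against 37.1% over all regions. There were 14 only in CAOV4cis, with a background of 33.8%, and 16 only in CAOV4, with a background of 29.1%. All these regions were narrow, at most 2.2 kb wide in CAOV4cis and 6.0 kb in CAOV4. By length, 79.7% of the CAOV4cis peaks and 73.3% of the CAOV4 peaks in the domain were shared, against 60.1% and 63.7% over all chromosomes.

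The differences of the resistant lines from their parents in *PVT1* were 3.6 kb in the A2780 pair and -13.8 kb in the CAOV4 pair. Downstream of *PVT1* they were -36.2 kb and -16.0 kb, at different places, since the A2780 pair differed in the far stretch and CAOV4 cells had no peak there. Whether the pairs differ from one another was not tested.

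For the *MBD3* hairpins, both comparisons use the same A2780 list. The shMBD3.26 cells covered 0.817 times the A2780 length in the domain and 0.795 times over the whole lists, and 56.6% of the 2 Mb windows had a lower ratio. The shMBD3.232 cells covered 0.930 times the A2780 length in the domain and 0.817 times over the whole lists, and 78.9% of the windows had a lower ratio. No step of the domain was called in either comparison. The background was 0.453% of steps higher and 2.40% lower with shMBD3.26, and 0.449% higher and 2.41% lower with shMBD3.232.

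With shMBD3.26, 17 of 36 merged regions were shared with A2780, or 47.2% (30.4 to 64.5%), against 48.0% over all regions. There were 4 regions only in the hairpin list, with a background of 18.0%, and 15 only in A2780, with a background of 34.0%. With shMBD3.232, 17 of 37 regions were shared, or 45.9% (29.5 to 63.1%), against 49.0% over all regions. There were 6 only in the hairpin list, with a background of 10.9%, and 14 only in A2780, with a background of 40.1%. The largest regions missing from the hairpin lists were an A2780 peak of 7.6 kb in *PVT1*, from 128959401 to 128967000, with shMBD3.26, and the peak of 4.6 kb from 129438001 to 129442600 with shMBD3.232.

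The hairpin lists differed from each other in *PVT1*, with 54.0 kb with shMBD3.26 and 79.6 kb with shMBD3.232, while A2780 lay in between with 71.4 kb. The domain as a whole was covered 1.14 times as far with shMBD3.232 as with shMBD3.26, against 1.03 times over the whole lists, and 77.0% of the 2 Mb windows had a lower ratio. No step was called between them, with a background of 0.636% higher with shMBD3.232 and 0.805% higher with shMBD3.26. Of 33 merged regions, 13 were shared, or 39.4% (22.9 to 57.9%), against 53.8% over all regions. There were 10 only with shMBD3.232, with a background of 16.2%, and 10 only with shMBD3.26, with a background of 30.0%. All 10 regions listed only with shMBD3.232 lay in *PVT1*.

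**Figure D5:**
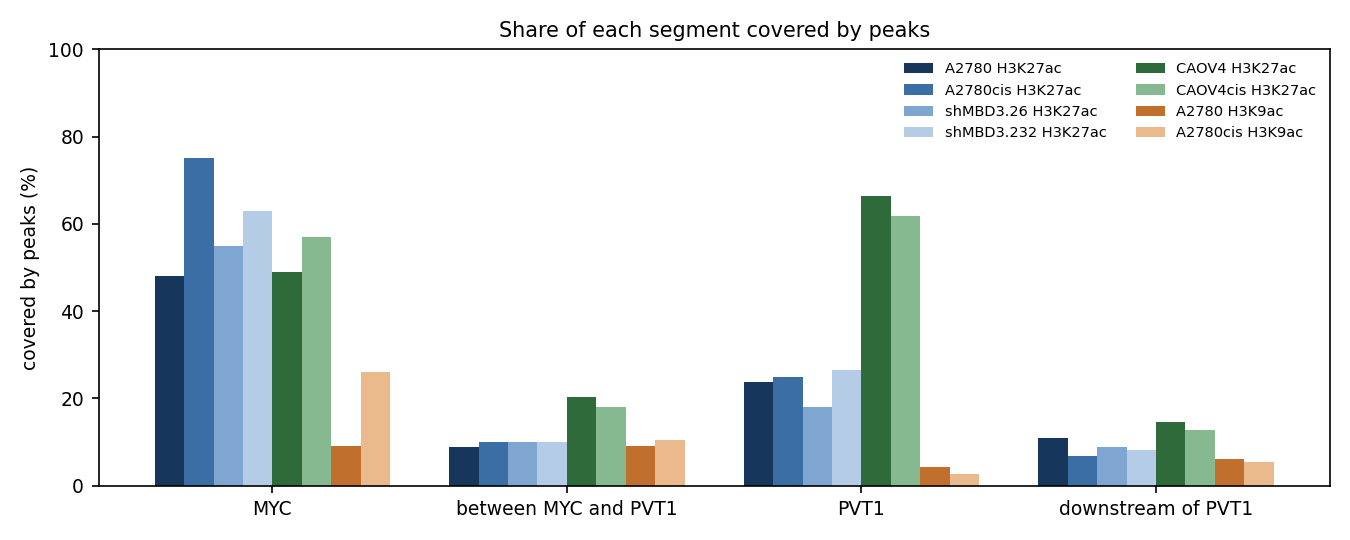
Share of each segment covered by listed peaks (vertical axis, percent) for the *MYC* window, the stretch between *MYC* and *PVT1*, *PVT1* and the stretch downstream to 130.00 Mb, with one bar per list and 1 library per bar, so that there are no error bars. CAOV4 and CAOV4cis stand above the other lists in *PVT1* at 66.5% and 61.9%, and A2780cis is highest at *MYC* at 75%.

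The 2 marks were set side by side within A2780 and A2780cis. Of 36 H3K27ac peaks of the domain in A2780, 10 also held an H3K9ac peak, or 27.8% (14.2 to 45.2%), against 45.0% of all H3K27ac peaks of that list. In A2780cis it was 11 of 30, or 36.7% (19.9 to 56.1%), against 52.9%. In reverse, 20 of 24 H3K9ac peaks in A2780 and 10 of 11 in A2780cis lay on an H3K27ac peak, or 83.3% and 90.9%, against 66.6% and 82.4% over the whole lists. H3K27ac peaks with H3K9ac had a median width of 6.5 kb in A2780, against 1.2 kb for those without, and of 5.2 kb against 2.2 kb in A2780cis. The H3K27ac peaks of the domain that held H3K9ac were thus wider by median. Overlap was counted from 1 shared bp, so that a wider peak has more room to meet an H3K9ac peak. The same widths over all chromosomes were not taken.

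The ratio of the marks changed along the domain. In *PVT1*, the H3K9ac length was 17.9% of the H3K27ac length in A2780 and 10.7% in A2780cis. Downstream of *PVT1* it was 55.6% and 78.0%. At *MYC* it was 18.8% and 34.7%. The highest ratio was that between *MYC* and *PVT1*, with 104.5% and 104%, where H3K9ac covered 4.6 and 5.2 kb. All bases there belong to the peaks over the *PVT1* start. The H3K27ac peaks are cut at 128.81 Mb and the H3K9ac peaks lie before it, so that this ratio depends on the boundary. The ratio in *PVT1* leaves these H3K9ac peaks out. Over all chromosomes the ratio was 55.8% in A2780 and 58.0% in A2780cis. *PVT1* and *MYC* therefore lay below the whole lists, while the stretch downstream of *PVT1* was close to them in A2780 and above them in A2780cis. From 129.11 to 129.80 Mb, H3K9ac covered 7.4 kb against 11.8 kb for H3K27ac in A2780, and 8.2 kb against 15.8 kb in A2780cis. From 129.80 to 130.00 Mb it covered 46.6 kb against 85.4 kb in A2780, and 39.4 kb against 45.2 kb in A2780cis. Downstream of *PVT1*, H3K9ac thus came closest to the H3K27ac length in the far stretch of A2780cis.

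Peaks were finally stitched into clusters, as is done for super-enhancers, with the default stitching distance of ROSE. Because the lists hold no signal, clusters were ranked by covered length. In CAOV4, one cluster of 31 peaks reached from 128799601 to 129085600, with 199.0 kb covered, and ranked 4 of 12992 clusters. A further CAOV4 cluster from 129098601 to 129229200, with 112.6 kb covered, ranked 27. In CAOV4cis, the cluster over the *PVT1* start held 19 peaks from 128803601 to 129006800, with 151.2 kb covered, and ranked 12 of 13270, and the cluster from 129099201 to 129223800 ranked 49. The *PVT1* body thus belonged to the longest clusters in both CAOV4 lists by this measure, but with a stitching distance of 5 kb the CAOV4cis cluster over the *PVT1* start ranked 192, against 4 in CAOV4.

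In the lists of A2780 and its derivatives, the cluster over the *PVT1* start was shorter. It covered 30.6 kb in A2780, with rank 535 of 14153, and 49.2 kb in A2780cis, with rank 214 of 12915. With shMBD3.26 it covered 28.0 kb, with rank 403 of 14043, and with shMBD3.232 60.2 kb, with rank 140 of 11400. In A2780 the far clusters ranked higher, at 297 for the one from 129859801 and at 248 for the peak of 48.6 kb. The cluster at *MYC* itself ranked between 1296 and 2388 in the 6 H3K27ac lists. By covered length and with this stitching distance, the *MYC* cluster therefore ranked below the cluster over the *PVT1* start in each of these lists.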

How the data were processed

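ChIP for H3K27ac and H3K9ac was done on mononucleosomes to which 5% from *D. melanogaster* had been added. Per the labels and the methods, the authors used Bowtie2 for alignment to GRCh37 (hg19), a custom R script for quantile normalization, and MACS2 for peak calling. Versions are not given in the sources used here. The authors deposited 1 peak list per sample, not pooled. The deposited score, a constant 0, was left out. The depth behind a peak is therefore unknown. Positions are printed 1-based.

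Peaks touching 128.00 to 130.00 Mb of chromosome 8 were taken from the 8 lists, clipped to the interval for covered lengths, merged at 1 shared bp and summed in 100 kb steps. The stretch that begins at 129969001 and the stitched clusters were not clipped. No p-value was computed, since each condition has 1 library. Intervals are exact binomial (Clopper-Pearson). The genes named are *MYC* and *PVT1*, with every called step and the widest peaks. Positions of other genes need an hg19 annotation and were not used. Members, lists and tests were chosen with earlier results of these data known. Alternatives were peaks over 2 kb, equal numbers of widest peaks, an interval shorter by 500 kb on both sides, an overlap of 50%, a distance of 5 kb, steps of 50 and 200 kb and stitching distances of 5 and 25 kb. Peaks over 1 kb and an interval longer by 500 kb downstream were added after seeing the data. The 6 rows off the standard chromosomes were left out. Python 3.11.15, numpy 2.4.6, pandas 2.3.3, SciPy 1.17.1 and matplotlib 3.10.9 were used, and the calls were tested on simulated data.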

Additional observations from a re-analysis of the deposited data

Results flagged for a closer look

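In 3 segments, H3K27ac covered length went one way in one pair of lists and the other way in the other pair, each with 1 library per condition, so that the difference between the pairs was not tested. In *PVT1*, the resistant line minus its parent was 3.6 kb for A2780cis and -13.8 kb for CAOV4cis. In *PVT1*, the hairpin line minus A2780 was -17.4 kb with shMBD3.26 and 8.2 kb with shMBD3.232. Between *MYC* and *PVT1*, A2780cis minus A2780 was 0.6 kb and CAOV4cis minus CAOV4 was -1.2 kb. The 0.6 kb is a shift of the left edge of the peak over the *PVT1* start, at 128805001 in A2780cis and 128805601 in A2780. Upstream of *MYC*, shMBD3.26 minus A2780 was 0.2 kb and shMBD3.232 minus A2780 was -0.2 kb, which is 1 step of the 200 bp grid on which the peaks lie.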

How the results depend on the processing

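Ratios of covered length kept their size under the alternatives within 0.798 to 1.12 for H3K27ac and 0.797 to 0.984 for H3K9ac of A2780cis to A2780, 0.916 to 0.924 for CAOV4cis to CAOV4, 0.787 to 0.853 and 0.911 to 1.05 for shMBD3.26 and shMBD3.232 to A2780, and 1.14 to 1.23 for shMBD3.232 to shMBD3.26. The ranges for H3K27ac of A2780cis and for shMBD3.232 include 1, so that their direction depends on the setting. Their values above 1, of 1.12 and 1.05, came only from the shorter interval, without the far stretch. CAOV4 to A2780 ranged from 1.71 to 3.72, and the value of 3.72 came from the shorter interval, which leaves out the far stretch. The share of regions in both lists was 68.2% for shMBD3.26 and A2780 with peaks over 1 kb, and 70.0% for shMBD3.232 and A2780 with peaks over 2 kb. The called last step of A2780cis against A2780 was lost for both marks in the shorter interval and in 200 kb steps, the first of which leaves it out. In 50 kb steps, 10 steps were higher in CAOV4 than in A2780 in place of 4, 2 steps were lower in A2780cis than in A2780 for each mark in place of 1, 2 steps were lower with shMBD3.26 and 1 with shMBD3.232 than in A2780, 1 step was higher with shMBD3.26 than with shMBD3.232, and 1 step was called in each direction between CAOV4cis and CAOV4. The hairpin and CAOV4cis comparisons had no called step at 100 kb. With the longer interval, 2 H3K27ac steps were lower in A2780cis. With stitching distances of 5 and 25 kb, the cluster over the *PVT1* start ranked 4 and 2 in CAOV4, 192 and 3 in CAOV4cis, 372 and 202 in A2780, 748 and 170 in A2780cis, 270 and 209 with shMBD3.26, and 254 and 135 with shMBD3.232. At 25 kb, the CAOV4 cluster also held the *MYC* peak. No paired analysis was possible because each condition has 1 library, and precision is limited by the unknown depth.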
